A study of Mus musculus with 15 samples.

Results

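The 7 genes described here carry the MHC class II pathway of antigen presentation, and their mRNA was measured in sorted T cells. They are H2-Aa, H2-Ab1, H2-Eb1, H2-DMa, H2-DMb1, Cd74 and Ciita, 7 of the 55421 genes in the count files, chosen by symbol through the Ensembl identifiers. Naive CD4+CD25-CD44-CD62L+ T cells of C57BL/6 mice were transferred into Rag2-/- recipients, where such cells cause colitis, and donor T cells were isolated 6 weeks later from spleen and mesenteric lymph nodes (mLN). WT donors carried floxed Prkaa1 alleles without Cre, and KO donors carried the same alleles with CD4-Cre. Prkaa1 encodes the catalytic subunit AMPKα1, and the floxed alleles were common to all groups. Each group held 4 samples, apart from WT mLN with 3. The other WT mLN sample did not meet the study's quality control and was not analysed here.

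Several features of the model bear on these genes. CD4-Cre acts once a thymocyte expresses CD4, so it marks T cells and not the cells of the recipients. Rag2-/- recipients have no T or B cells of their own but keep macrophages, dendritic cells and innate lymphoid cells, whose Prkaa1 is intact. The sources used here do not give the gate of the sort for RNA, nor whether samples with the same number came from 1 recipient. All animals were young adults according to the methods. In bulk RNA, fewer cells of a type and less RNA per cell cannot be told apart.

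MHC class II molecules are pairs of an α and a β chain that show peptides to CD4+ T cells, and they are made mainly by dendritic cells, B cells and macrophages. H2-Aa and H2-Ab1 encode the chains of I-A, and H2-Eb1 encodes the β chain of I-E, whose α chain is not made in C57BL/6 mice. Cd74 encodes the invariant chain, which fills the groove and guides the pair to endosomes, where H2-DM, made of the products of H2-DMa and H2-DMb1, exchanges the remaining piece of it for peptide. Ciita encodes the coactivator that switches these genes on. It does not bind DNA itself but docks on the factors RFX, CREB and NF-Y, which sit on the X and Y boxes of class II promoters. Mouse T cells are known for making little class II themselves.

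The promoters of 3 members are printed because they show the shared boxes on which Ciita acts. Promoter sequences for 4 of the 7 members were found in the RefSeq table of build GRCm38.p6, each with 250 bases before and 50 after the start of transcription. Capitals mark CTNGNAAC, the letters around the X box, and TGATTGG, the letters of the Y box. All run 5′ to 3′ on the strand of the gene. The H2-Aa window is chr17:34287774-34288073 on the minus strand, the H2-Eb1 window chr17:34305617-34305916 on the plus strand, and the H2-DMb1 window chr17:34152941-34153240 on the plus strand.
H2-Aa: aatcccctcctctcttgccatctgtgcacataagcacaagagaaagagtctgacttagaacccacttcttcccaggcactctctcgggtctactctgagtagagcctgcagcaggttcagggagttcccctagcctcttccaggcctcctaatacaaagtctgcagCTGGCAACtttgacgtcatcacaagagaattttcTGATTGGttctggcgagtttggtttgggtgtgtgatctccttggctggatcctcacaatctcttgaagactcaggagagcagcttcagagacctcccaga
H2-Eb1: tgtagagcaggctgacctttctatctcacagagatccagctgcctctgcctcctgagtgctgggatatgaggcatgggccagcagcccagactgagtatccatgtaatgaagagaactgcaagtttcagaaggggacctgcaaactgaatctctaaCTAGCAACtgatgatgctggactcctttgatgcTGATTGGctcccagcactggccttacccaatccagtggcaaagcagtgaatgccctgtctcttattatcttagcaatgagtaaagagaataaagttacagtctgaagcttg
H2-DMb1: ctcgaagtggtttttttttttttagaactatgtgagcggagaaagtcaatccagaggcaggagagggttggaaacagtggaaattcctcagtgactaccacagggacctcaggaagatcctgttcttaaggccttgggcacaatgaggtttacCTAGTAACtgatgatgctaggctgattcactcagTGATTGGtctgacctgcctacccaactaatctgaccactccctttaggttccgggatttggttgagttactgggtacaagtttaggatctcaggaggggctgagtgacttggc

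In each of the 3 windows the X letters lay upstream of the Y letters, with 26, 25 and 26 bases between them in H2-Aa, H2-Eb1 and H2-DMb1. The Y letters began 50, 61 and 63 bases before the start of transcription, in the same order. On either strand, CTNGNAAC was held by 13.2% of the 32851 promoters in the table and TGATTGG by 7.82%, and the letters do not overlap each other. Both, in this order on 1 strand with 15 to 35 bases between them, were in 23 promoters (0.0700%) of 20 genes, among them H2-Ob, which encodes a chain of the H2-DM inhibitor H2-O. Neither string was in the 2 windows of H2-DMa on the strand of the gene. These motifs were written down after the sequences had been seen, and a match is a string of letters and not a shown binding site.

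Depth was even. Each sample had between 9363940 and 11283439 reads on genes, and levels are given as counts per 1e+06 of these reads (CPM), per kb of exon wherever genes are compared. Prkaa1 was read at 46.3 to 54.1 CPM in WT spleen and 18.4 to 21.7 in KO spleen, and at 49.0 to 60.9 in WT mLN and 21.4 to 32.2 in KO mLN, so every library was on the side of its label. The T cell list (Cd3d, Cd3e, Cd3g, Cd4, Trac, Trbc2, Lck and Cd5) summed to 7171 to 9335 CPM. Red cell genes stood high in WT spleen replicates 3 and 4 and WT mLN replicate 4 (798 to 1888 CPM, against 17.8 to 120.5 in the others), and macrophage genes in KO spleen replicate 3 and WT mLN replicate 1. Results are given without these libraries where that changes them.

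All 7 genes were read in every sample, with 5 reads (H2-DMb1 in WT mLN replicate 4) as the lowest count, and all 7 passed the filter on low counts in each comparison. Per kb of exon, Cd74 had the highest level in all 15 samples, with group means of 131 to 215 CPM per kb. H2-DMa followed with 16.8 to 30.6, H2-Ab1 with 10.9 to 27.1, H2-Eb1 with 5.79 to 22.7 and H2-Aa with 3.81 to 12.2. H2-DMb1 (1.59 to 2.88) and Ciita (0.348 to 0.956) were lowest. H2-DMa was above H2-Ab1 in all WT spleen samples, but H2-Ab1 was the higher of the pair in KO spleen replicates 2 and 3, WT mLN replicate 1 and KO mLN replicates 2 and 4, so over the series these neighbours do not differ beyond their spread. In KO mLN replicate 2, H2-DMa was also below H2-Eb1 and H2-Aa. H2-DMb1 was above Ciita in all samples apart from WT mLN replicate 4, where it had 5 reads. In addition, H2-Ab1 was above H2-Eb1 and H2-Eb1 above H2-Aa in all samples. Cd74 was 12.2 to 49.0 times H2-Aa per kb, with a median of 24.1.

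The α and β chain genes H2-Aa, H2-Ab1 and H2-Eb1 lie on chromosome 17 at 34282744-34287823, 34257689-34269419 and 34305867-34316674 (GRCm38). In spleen, H2-Aa was at 14.3, 12.8, 15.9 and 14.7 CPM in WT replicates 1 to 4 and at 21.0, 34.4, 53.3 and 20.3 CPM in KO replicates 1 to 4. H2-Ab1 was at 31.3, 21.4, 29.3 and 29.6 CPM in the WT samples and 38.5, 58.4, 102 and 39.8 CPM in the KO samples. H2-Eb1 was at 10.2, 7.90, 14.3 and 12.6 CPM in the WT samples and 17.01, 34.5, 39.0 and 17.6 CPM in the KO samples. For each of the 3 genes every KO spleen sample was above every WT spleen sample, and KO replicates 2 and 3 were highest. In mLN, replicates 1, 2 and 4 of WT had 54.2, 29.1 and 17.8 CPM of H2-Aa, and KO replicates 1 to 4 had 17.9, 99.9, 43.6 and 24.0 CPM. H2-Ab1 was at 91.8, 37.9 and 32.9 CPM in WT mLN and 43.9, 144, 48.2 and 41.7 CPM in KO mLN. H2-Eb1 was at 49.8, 28.4 and 22.4 CPM in WT mLN and 25.6, 97.1, 33.8 and 20.2 CPM in KO mLN. The genotypes overlapped in mLN, where WT replicate 1 and KO replicate 2 carried the highest level of their group for all 3 genes. H2-Eb1 overlaps Gm20513 on the other strand, which had 2 reads in all.

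**Figure D1:**
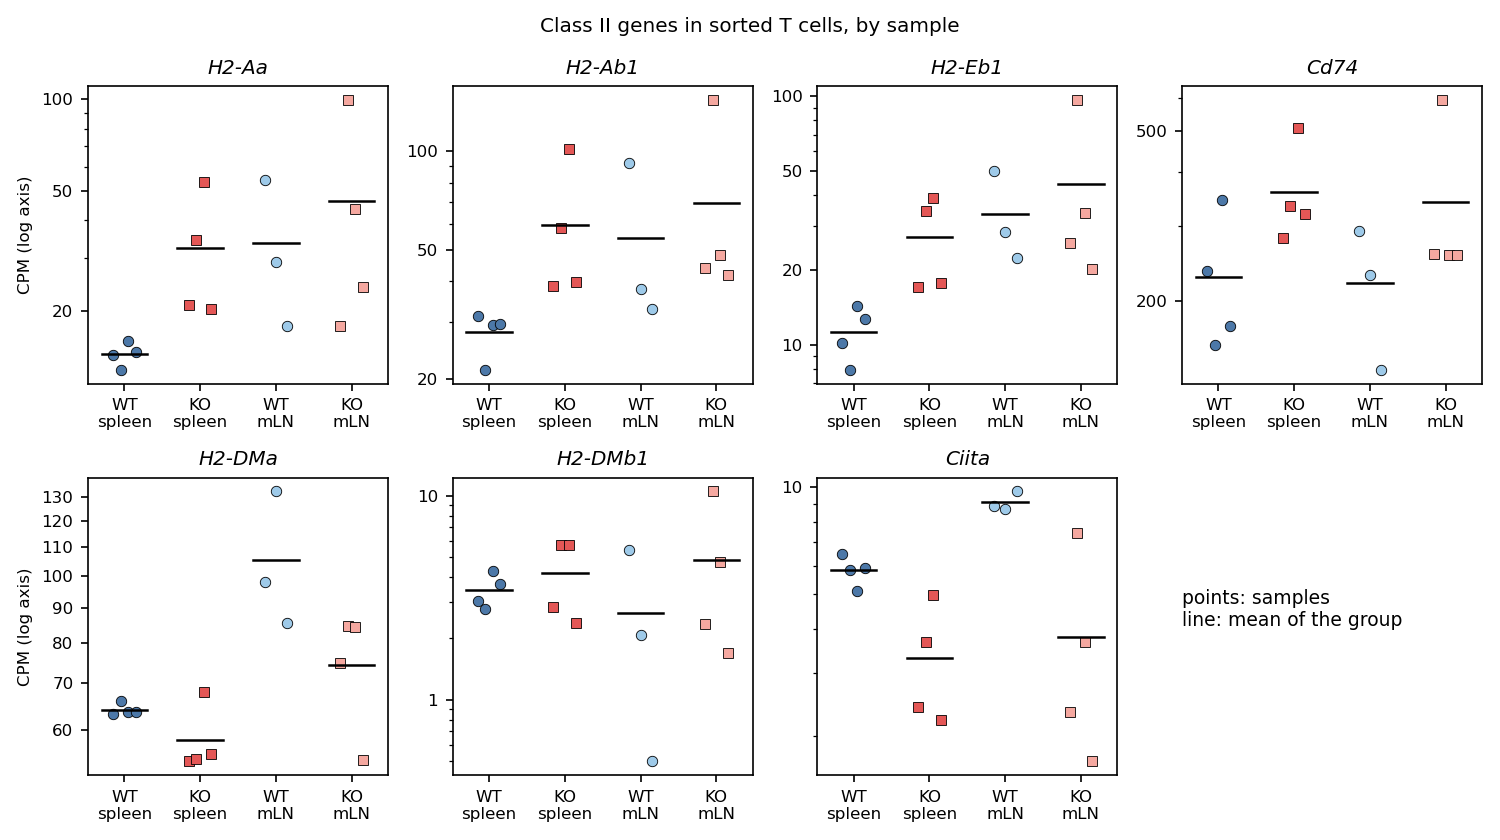
Level of each class II gene in CPM (log axis, a range of its own per panel) for the 4 groups; points are samples and lines group means. H2-Aa, H2-Ab1 and H2-Eb1 do not overlap between WT and KO spleen, KO mLN replicate 2 is far above its group for Cd74 (594 CPM against 255 to 258), and Ciita is lower in every KO sample than in every WT sample of the same organ.

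Cd74, on chromosome 18 at 60803848-60812652, was read with 1379 to 6465 counts per sample and is the most precisely counted member. It was at 235, 157, 345 and 174 CPM in WT spleen and 280.4, 334, 509 and 319 CPM in KO spleen. In mLN it was at 291, 229.8 and 137 CPM in WT and 258, 594, 255 and 256 CPM in KO. The genotypes overlapped in both organs, in spleen through WT replicate 3 alone. That library also had the most red cell reads. Mir5107 lies inside Cd74 on the same strand and had 13 reads in all.

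The H2-DM genes differed in level and in spread. H2-DMa (chromosome 17, 34119541-34139101) was at 63.2, 65.9, 63.6 and 63.7 CPM in WT spleen and 54.0, 54.4, 68.0 and 55.3 CPM in KO spleen. It was at 98.0, 133 and 85.6 CPM in WT mLN and 74.8, 84.6, 84.3 and 54.3 CPM in KO mLN, where all KO samples were below all WT samples. Brd2, a far more abundant gene with 47267 reads in all, overlaps H2-DMa on the other strand by 3094 bases. CR974462.4 does so by 1491 bases (1671 reads), and CR974462.3 overlaps on the same strand (109 reads). The sources used here do not state which strand was counted, for H2-DMa as for all genes. H2-DMb1 (chromosome 17, 34153072-34160230), its partner, had 5 to 115 counts per sample, at 2.78 to 4.27 CPM in WT spleen, 2.39 to 5.74 in KO spleen, 0.498 to 5.46 in WT mLN and 1.69 to 10.6 in KO mLN. Reads that fit it and its near-identical copy H2-DMb2 equally well were not counted, so its level is uncertain. The ratio of H2-DMa to H2-DMb1 per kb was 83.8 in WT mLN replicate 4, on 5 reads of H2-DMb1, and 3.90 to 31.1 in the other samples, whereas that of H2-Ab1 to H2-Aa was 1.63 to 3.62. On the log2(CPM + 1) scale, H2-DMa and H2-DMb1 had a Pearson's r of −0.0021 across the 15 samples and of 0.55 after subtraction of group means.

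Ciita (chromosome 16, 10480059-10528418) was read with 19 to 98 counts per sample. It was at 6.49, 5.87, 5.12 and 5.92 CPM in WT spleen and 2.42, 3.66, 4.99 and 2.22 CPM in KO spleen. In mLN it was at 8.88, 8.70 and 9.77 CPM in WT and 2.34, 7.44, 3.67 and 1.69 CPM in KO. All KO samples were below all WT samples of the same organ, by a narrow gap in spleen. In both KO groups the sample with the most Ciita was also the one with the most H2-Aa, H2-Ab1, H2-Eb1 and Cd74. The WT groups did not show this. WT mLN replicate 4 had the most Ciita of its group and the least of these genes. WT spleen replicate 3 had the least Ciita of its group and the most H2-Aa, H2-Eb1 and Cd74. Dexi, with 583 reads in all, overlaps Ciita on the other strand, and its log2 differences between genotypes were −0.11 in spleen and −0.16 in mLN.

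The comparison of KO with WT in spleen sets sorted samples from recipients of KO cells beside those from recipients of WT cells. According to the paper, recipients of KO cells had milder inflammation and fewer T cells, which cannot be told apart from genotype here. H2-Eb1 had a log2 fold change of 1.27 ± 0.30 (SE, n = 4 and 4, 2.41-fold, adjusted p = 0.0650 by edgeR's quasi-likelihood test), H2-Aa of 1.17 ± 0.28 (2.25-fold, adjusted p = 0.0700) and H2-Ab1 of 1.11 ± 0.29 (2.16-fold, adjusted p = 0.0812). Cd74 was at 0.67 ± 0.26 (adjusted p = 0.190) and H2-DMb1 at 0.28 ± 0.31. H2-DMa was at −0.13 ± 0.09 and Ciita at −0.80 ± 0.26 (adjusted p = 0.127). So 0 of the 7 members passed the limit of 0.05 over all genes, beside 1.3% of the 14254 genes tested, while 5 of the 7 had an unadjusted p under 0.05, as 2924 genes did. DESeq2 called H2-Eb1 (adjusted p = 0.000916), H2-Aa (0.00144) and H2-Ab1 (0.0395), and called 799 genes in all (5.68%). The groups of 4 of the 7 members did not overlap, 3 higher in KO and Ciita lower, beside 12% of all genes tested. Without KO replicate 3, the log2 differences were 1.04 for H2-Eb1, 0.81 for H2-Aa and 0.72 for H2-Ab1.

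Macrophage genes had the same direction in these samples. Of the 12 genes of the macrophage and monocyte list, 11 were tested, 0 were called by edgeR and 10 had a positive log2 difference, with a median of 0.89 beside −0.00 over all genes tested. The complement genes C1qa, C1qb and C1qc, typical of tissue macrophages, had log2 differences of 1.85, 1.93 and 1.69 (adjusted p = 0.0951, 0.0637 and 0.0883 by edgeR). Their KO samples did not overlap the WT samples, as for 12% of all genes tested. Lyz2, the most abundant gene of the list, overlapped, with means of 112 CPM in WT and 116 CPM in KO. The summed list was at 126 to 229 CPM in WT and 148 to 439.7 CPM in KO spleen, the highest being KO replicate 3, which also had the highest H2-Aa, H2-Ab1, H2-Eb1 and Cd74 of the spleen samples. Without that library the 3 chain genes kept a positive difference, as given above. The lowest KO values of C1qa, C1qb and C1qc (3.99, 12.2 and 12.2 CPM) also stayed above the highest WT values (3.04, 7.96 and 8.02 CPM). Leaving it out therefore does not separate the chain genes from these macrophage genes, and the source of the class II difference was not tested.

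In mLN the same comparison gave 0 of 7 members past the limit by edgeR, beside 0.641% of 14359 genes, and H2-DMa and Ciita had an unadjusted p under 0.05, as 2253 genes did. DESeq2 called 0 of the 7 as well, and 561 genes in all (3.81%). The groups of 2 of the 7, H2-DMa and Ciita, did not overlap, beside 14.4% of all genes tested. Ciita had the largest difference of the members, at −1.28 ± 0.43 (SE, n = 3 and 4, adjusted p = 0.193 by edgeR), followed by H2-DMb1 at 0.82 ± 0.75, Cd74 at 0.62 ± 0.32 and H2-DMa at −0.51 ± 0.18 (adjusted p = 0.205). H2-Aa, H2-Eb1 and H2-Ab1 were at 0.44 ± 0.53, 0.38 ± 0.49 and 0.34 ± 0.47. Those differences moved with single libraries. Without KO replicate 2 they turned to −0.26, −0.35 and −0.29, while Ciita was at −1.83 (adjusted p = 0.0668), and without WT replicate 1 they were at 0.98, 0.79 and 0.97. KO mLN replicate 2 also had the most reads of Siglech, a marker of plasmacytoid dendritic cells (89, against 0 to 52 in the other samples). Klk1, Cox6a2 and Spib of the plasmacytoid list, with at most 10, 30 and 13 reads in any sample, were also highest in that library. The other genes of the list were not. The sum of the list, which rests on Ccr9, did not single the library out. This sum was 64.8 CPM there, 40.1 to 127 over the KO mLN samples and 71.1 to 101 in WT mLN. The same library had 10 reads of the class II gene H2-Eb2, which had at most 1 elsewhere.

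**Figure D2:**
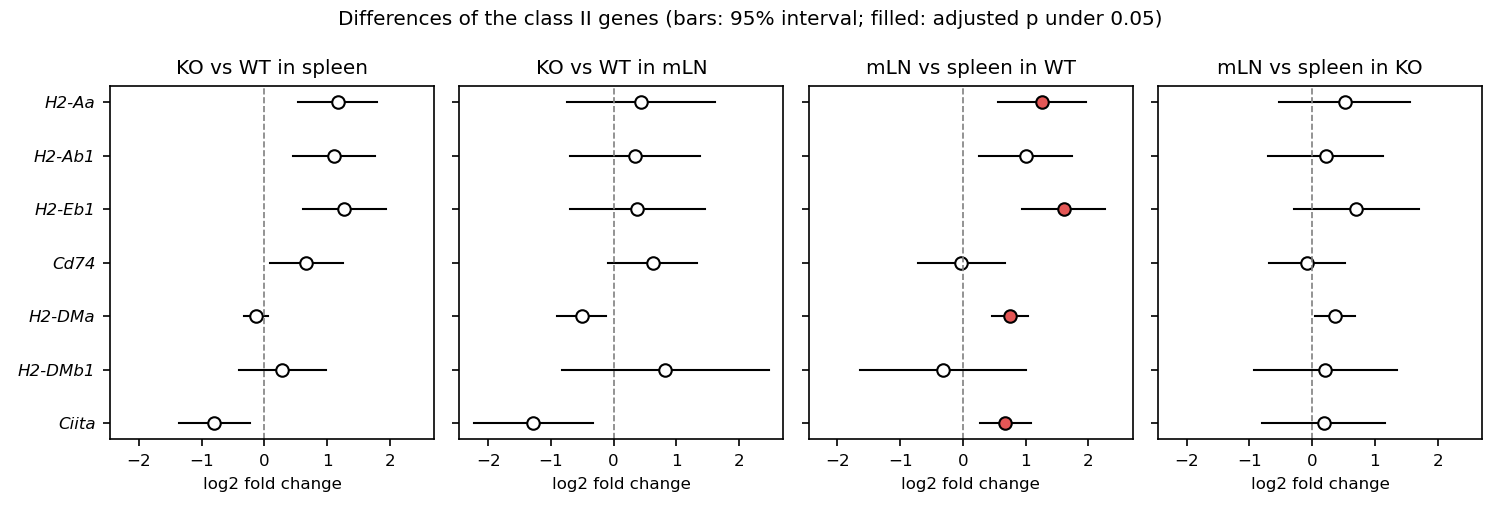
Log2 fold change of each class II gene in the 4 comparisons by edgeR; bars are 95% intervals and filled points passed an adjusted p of 0.05. Filled points are the 4 genes of the organ comparison in WT, and in KO minus WT the intervals of H2-Aa, H2-Ab1, H2-Eb1, Cd74 and Ciita exclude 0 in spleen without passing the limit over all genes.

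The organs differed in the WT cells. H2-Eb1 rose in mLN by a log2 fold change of 1.61 ± 0.29 (SE, n = 4 and 3, 3.06-fold, adjusted p = 0.00568 by edgeR), H2-Aa by 1.26 ± 0.31 (2.40-fold, adjusted p = 0.0213), H2-DMa by 0.75 ± 0.13 (1.69-fold, adjusted p = 0.00444) and Ciita by 0.68 ± 0.18 (1.60-fold, adjusted p = 0.0270). These were 4 of 7 members, beside 20.5% of 14515 genes, and the groups of 5 of 7 did not overlap, beside 31.5%. H2-Ab1 was at 1.0 ± 0.33 (adjusted p = 0.0597) without overlap, and passed with the replicate number as a block (log2 0.92, adjusted p = 0.0107). Cd74 was at −0.02 ± 0.31 and H2-DMb1 at −0.32 ± 0.59. The calls of H2-Eb1 and H2-DMa were kept whichever sample was left out. The call of H2-Aa was lost without WT mLN replicate 1 (log2 0.72, adjusted p = 0.0518), the library with the most macrophage reads of its organ, and without WT spleen replicate 1 or 2 (adjusted p = 0.0573 and 0.0609), and the call of Ciita was lost in 6 of the 7 such fits (adjusted p up to 0.0728). Ciita stayed under the limit with the replicate block (adjusted p = 0.0490) and lost its call with no filter on low counts, with all 15 samples in 1 fit and without the libraries rich in red cell reads (adjusted p = 0.0911, 0.205 and 0.207). Brd2, which overlaps H2-DMa, fell by 0.62 on the log2 scale. CR974462.4, which also overlaps H2-DMa, rose by 0.83 (adjusted p = 0.0873 by edgeR), and between the KO organs by 1.31 (adjusted p = 0.00116). Whether overlapping reads add to the H2-DMa counts was not tested.

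In the KO cells, 0 of 7 members passed the limit between the organs, beside 25.3% of 14240 genes, the groups of all 7 overlapped, while 28.7% of the genes did not, and H2-DMa alone had an unadjusted p under 0.05, as 5321 genes did. H2-Eb1 was at 0.71 ± 0.45 (SE, n = 4 and 4), H2-Aa at 0.52 ± 0.48, H2-DMa at 0.36 ± 0.14 (adjusted p = 0.0858 by edgeR), H2-Ab1 at 0.22 ± 0.42 and Ciita at 0.18 ± 0.45. Without KO mLN replicate 2, H2-Eb1, H2-Aa, H2-Ab1, H2-DMb1 and Ciita turned to −0.019, −0.18, −0.41, −0.51 and −0.37. A call in WT and none in KO does not show that the organs' difference depends on genotype. Tested directly, the genotype by organ interaction had 0 of 7 members past the limit by edgeR, beside 0% of 15438 genes (652 with an unadjusted p under 0.05), and DESeq2 called 2 genes, neither of them a member. The interaction terms of H2-Aa, H2-Ab1 and H2-Eb1 were −0.74 ± 0.67, −0.78 ± 0.62 and −0.90 ± 0.64.

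Macrophage genes were lower in mLN than in spleen in the KO cells. Of the 10 macrophage and monocyte genes tested there, 7 were called lower, beside 13.9% of all genes, among them the receptor genes Csf1r (log2 −1.49) and Adgre1 (−1.86), and the list had a median of −1.55. In the WT cells, 7 of the 11 tested had a negative and 4 a positive log2 difference, with a median of −0.33. The conventional dendritic cell list had 5 genes tested in each genotype, with medians of 0.15 in WT and 0.19 in KO. Ccl22, a chemokine of mature dendritic cells that activated T cells can also make, was the member of it called higher in mLN in both (log2 5.08 in WT and 4.04 in KO, adjusted p = 0.000719 and 0.00106 by edgeR), from at most 0.748 CPM in spleen. In KO, Itgax was also called higher (1.14) and Xcr1 lower (−0.54). Within mLN, Ccl22 was at 12.4, 11.9 and 4.68 CPM in WT replicates 1, 2 and 4 and at 1.62, 5.42, 9.41 and 3.03 CPM in KO replicates 1 to 4. WT replicate 1, highest of its group for H2-Aa, H2-Ab1 and H2-Eb1, was also highest for Ccl22, and KO replicate 2, highest of its group for the same genes, was not.

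The list of 28 other genes of the pathway was chosen by role. Between genotypes, 0 of 26 tested in spleen and 0 of 25 tested in mLN were called by edgeR, with median log2 differences of 0.09 in both organs, beside −0.00 over all genes in each. RFX, CREB and NF-Y genes, on which Ciita docks, were tested in both organs and none passed. Between organs, 6 of 26 were called higher in mLN in WT and 6 of 26 in KO, beside 9.7% and 11.4% of all genes called higher. None was called lower in WT and 1 in KO, the interferon factor gene Irf1 at −0.34, beside 10.8% and 13.9%. The median log2 differences of the list were −0.06 in WT and −0.11 in KO. H2-Oa, the other chain of the inhibitor H2-O, rose by 1.11 in WT and 1.47 in KO, and Ctss, the protease that trims the invariant chain, rose by 1.19 and 0.95, from 136 to 181 CPM in spleen to 244 to 408 CPM in mLN over both genotypes. Ifi30, a lysosomal thiol reductase, rose by 0.74 and 0.58. Cd40, Ctsl and Lgmn were called in WT, and Cd83, H2-Ob and H2-DMb2 in KO, without a test of the difference passing for any of them. H2-Eb2 and the pseudogene H2-Ea-ps were too low to test.

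**Figure D3:**
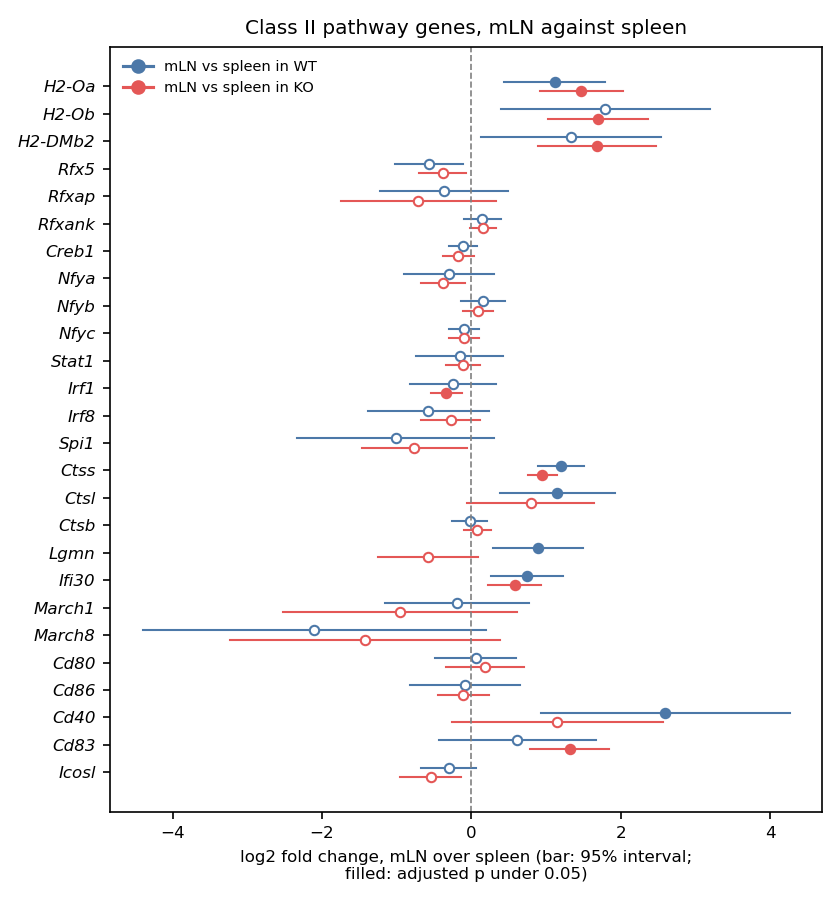
Log2 fold change from spleen to mLN of the other genes of the class II pathway, in WT and KO, by edgeR; bars are 95% intervals and filled points passed an adjusted p of 0.05. Ctss, H2-Oa and Ifi30 are filled on the right in both genotypes, and the promoter factor genes Rfx5 to Nfyc are unfilled.

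Ciita and the chain genes were set against each other in each sample. Per kb, Ciita was 0.128 to 0.183 of H2-Aa in WT spleen and 0.0373 to 0.0458 in KO spleen, 0.0653 to 0.218 in WT mLN and 0.0281 to 0.0520 in KO mLN. Every KO sample of either organ was below every WT sample of either organ. This ratio was chosen after the values were seen, so it has no test. Pearson's r across the 15 samples was taken on the log2(CPM + 1) scale after subtraction of group means. It was 0.81 between Ciita and H2-Aa, and 0.76 and 0.82 with H2-Ab1 and H2-Eb1. Without that subtraction r was 0.19, 0.12 and 0.18. The value of 0.81 pools the groups, and Ciita and H2-Aa did not rise together in WT. WT mLN replicate 4 had the most Ciita (9.77 CPM) and the least H2-Aa (17.8 CPM) of its group. WT spleen replicate 3 had the least Ciita (5.12 CPM) and the most H2-Aa (15.9 CPM). For H2-Aa and H2-Ab1 the r was 0.92 within groups and 0.95 without the subtraction, and for H2-DMa and H2-Ab1 it was 0.38 and 0.24. These samples share depth and library composition, and the values are descriptions.

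**Figure D4:**
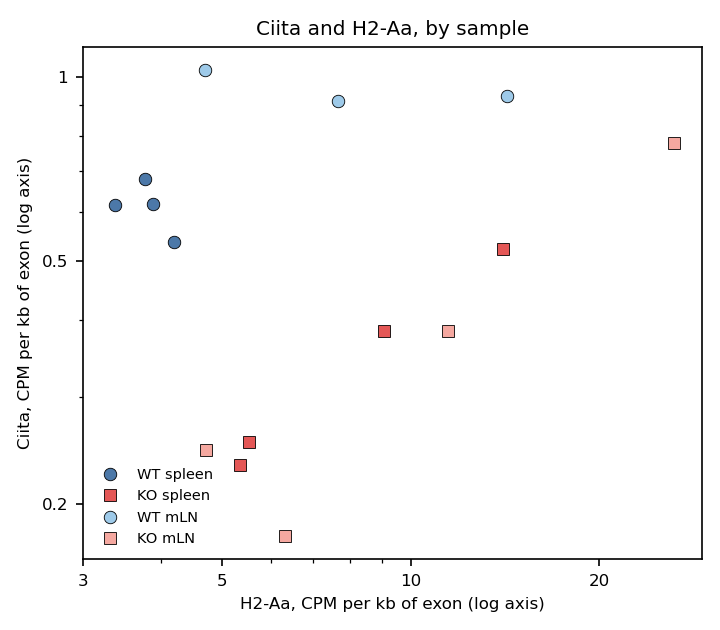
Ciita against H2-Aa in CPM per kb of exon (log axes), 1 point per sample, with circles for WT and squares for KO. The KO samples of both organs lie along 1 rising band with a ratio of 0.0281 to 0.0520, under the WT samples at 0.0653 to 0.218.

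Markers of cells that carry class II ranged widely in level. The B cell gene Ms4a1 had 0 reads in all 7 mLN samples and at most 4 in any spleen sample, and the B cell list rested on Ighm, at 37.0 to 177 CPM in spleen and 171 to 543 in mLN. Of the dendritic cell genes, Clec9a and Cd209a had at most 3 reads in any sample and Flt3 at most 16, whereas Zbtb46 (12.2 to 18.0 CPM by group) and Xcr1 (7.39 to 10.8) made up most of the list. That list summed to 28.6 to 36.8 CPM in WT spleen, 29.2 to 35.3 in KO spleen, 31.6 to 42.8 in WT mLN and 29.5 to 45.3 in KO mLN. Macrophage and monocyte markers summed to 54.0 to 439.7 CPM, with Lyz2, which encodes lysozyme, at group means of 49.5 to 116 CPM. The plasmacytoid list rested on Ccr9, also a gut-homing receptor of T cells, which fell in KO spleen by 1.40 on the log2 scale (adjusted p = 0.0444 by edgeR). The share of class II mRNA that came from T cells was not measured.

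Cd74 was compared with each marker list across the samples of an organ, 22 relations in all. None passed after Benjamini-Hochberg adjustment (smallest adjusted p = 0.304). The T cell list in spleen (n = 8) had a Pearson's r of 0.71 (exact permutation p = 0.0448, two-sided, adjusted p = 0.304), a Spearman's rho of 0.74 (exact permutation p = 0.0458) and an r of 0.53 without the 2 samples farthest from the median of the list. The list of NK and innate lymphoid cells in spleen had an r of 0.78 (exact permutation p = 0.0249, adjusted p = 0.304), rho 0.55 (exact permutation p = 0.171) and r without 2 samples 0.71. This list rests on Eomes (mean 47.9 CPM in WT and 90.5 in KO spleen). Its sums did not overlap between genotypes (64.0 to 89.1 CPM in WT, 109.7 to 119 in KO), so the pooled r includes that difference. After subtraction of group means its r was 0.58. Neutrophil genes in mLN (n = 7) had an r of −0.74 (exact permutation p = 0.0369, adjusted p = 0.304), rho −0.64 (exact permutation p = 0.139) and r without 2 samples −0.71. With the macrophage list, r in spleen was 0.53 (exact permutation p = 0.180, adjusted p = 0.470), rho 0.29 (exact permutation p = 0.501) and r without 2 samples 0.53. In mLN (n = 7) the r was 0.39 (exact permutation p = 0.393, adjusted p = 0.603) and rho 0.32 (exact permutation p = 0.498). Without 2 such samples r was −0.17, so not even its sign was stable. With the conventional dendritic cell list, r in spleen was 0.29 (exact permutation p = 0.483, adjusted p = 0.6248), rho 0.31 (exact permutation p = 0.462) and r without 2 samples −0.17. In mLN the r was 0.63 (exact permutation p = 0.0817, adjusted p = 0.304), rho 0.50 (exact permutation p = 0.267) and r without 2 samples 0.57. After subtraction of group means, the r of Cd74 in spleen and mLN was 0.40 and 0.56 with macrophages, 0.63 and 0.57 with dendritic cells and 0.72 and −0.72 with T cells.

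H2-Ab1 was set against the same lists after the data were seen, as another 22 relations. In mLN (n = 7) its r with the macrophage list was 0.52 (exact permutation p = 0.249, adjusted p = 0.653), rho 0.57 (exact permutation p = 0.200) and r without 2 samples −0.09. With the dendritic cell list the r was 0.68 (exact permutation p = 0.0877, adjusted p = 0.482), rho 0.75 (exact permutation p = 0.0663) and r without 2 samples 0.64. In spleen the genotypes do not overlap in H2-Ab1, so no pooled r is given there. After subtraction of group means, r was 0.82 with the macrophage list and 0.83 with the dendritic cell list in spleen, and 0.58 and 0.67 in mLN, given as descriptions on groups of 3 or 4 samples.

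**Figure D5:**
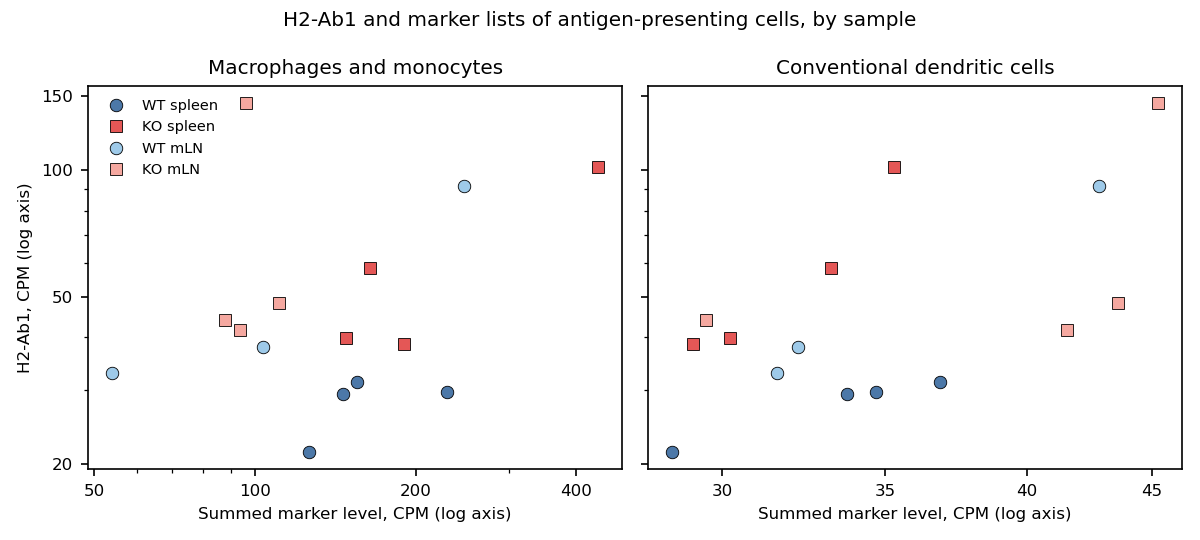
H2-Ab1 against the summed macrophage and monocyte markers (left) and conventional dendritic cell markers (right), all in CPM on log axes, 1 point per sample. KO spleen replicate 3 and WT mLN replicate 1 are far to the right on the left panel (439.7 and 247 CPM). WT spleen replicate 4 is close to the latter on that axis (229 CPM) but has only 29.6 CPM of H2-Ab1. KO mLN replicate 2, with the most H2-Ab1, is at 96.0 CPM there. On the right panel it is farthest right (45.3 CPM), by a small step over KO mLN replicate 3 (43.6 CPM), which has 48.2 CPM of H2-Ab1.

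The genes whose pattern was most like that of Cd74 were named by a fixed rule from the 15438 genes of the interaction fit. Over all 15 samples the highest Pearson's r on log2 CPM was that of Orai1 (0.85), a calcium channel of activated lymphocytes, followed by Tnf (0.84), K230015D01Rik (0.83), Tbc1d10b (0.82), Ormdl1 (0.82), Lta (0.81), E2f1 (0.81), Cmtm3 (0.80), Lrrc47 (0.79) and Jund (0.79). Tnf and Lta encode cytokines made by activated T cells among others. Among the members, H2-Ab1 had an r of 0.81, H2-DMb1 0.74, H2-Aa 0.74, H2-Eb1 0.68, H2-DMa −0.04 and Ciita −0.15. After subtraction of group means the list was led by Zfp444 (0.89), Mustn1 (0.88), Alad (0.86), Hif1a (0.85) and Gm15567 (0.85), followed by Minpp1, Gm15283, Lsm10, Gm17103 and E2f1 (0.84 to 0.81). The members were then at 0.84 for H2-Ab1, 0.83 for H2-Eb1, 0.80 for H2-Aa, 0.77 for H2-DMb1, 0.56 for Ciita and 0.49 for H2-DMa. Orai1, Tnf and Lta were not in the second list, and E2f1 was in both.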

How the data were processed

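T cells were sorted from spleen and mLN, and single-end reads of their mRNA were sequenced. The authors aligned the reads with STAR 2.6.1a to GRCm38 with GENCODE annotation and counted reads per gene with STAR, and the deposited values are raw counts per gene without normalization. The submitters' processing notes also name bcl2fastq 2.19.1.403 and RSEM, in no stated role, and DESeq2 1.22.2. Groups and replicate numbers came from the sample labels. The strand that was counted is not given in the sources used here. The median share of unique reads outside genes was 60.9%, and multimapping reads were not counted.

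Symbols and coordinates came from GENCODE M21 on the same build, where 55240 of 55421 genes were found. CPM is the count divided by all reads on genes of the sample. Each comparison was fitted on its own groups with edgeR 4.0.16 in R 4.3.3, with the filter filterByExpr, TMM normalization, the quasi-likelihood test and Benjamini-Hochberg adjustment over all genes tested. A gene was called at an adjusted p under 0.05. According to the study, a group was 4 mice of 1 experiment, so p-values measure the spread between mice within that experiment. Correlations used log2(CPM + 1) and exact permutations of pairings in Python 3.11.15. The fits were tested on simulated counts.

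The genes named are the 7 members, Prkaa1, the 28 pathway genes and the 10 genes most like Cd74 with and without group means. Marker and overlapping genes were named after their values were seen, and results of 2 marker genes are not reported here. The members, lists and tests were chosen with earlier results of these data known. The alternatives were DESeq2 1.42.0, RLE normalization, no TMM, other filters, a fit of all 15 samples, a replicate block and each sample left out. Fits without the libraries rich in macrophage or red cell reads were added after the data were seen. For pairing, deviations from group means were correlated. Same-numbered WT spleen and mLN samples had r of 0.24 to 0.29 in all 3 pairs. The main fits nevertheless treated all samples as unpaired, and the replicate block was run as an alternative. Between the KO organs r was 0.03 to 0.26 in 4 pairs, with a mean of 0.12 against −0.04 for other numbers. Whether those samples are paired is not known. Between genotypes the lowest r was −0.21 in spleen and −0.05 in mLN.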

Additional observations from a re-analysis of the deposited data

Results flagged for a closer look

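In 54 groups of 4 samples (7 genes and 11 marker lists), 7 held a sample that stood apart from the others by Dixon's criterion at the 95% level. Chance alone gives about 1 in 20. KO mLN replicate 2 had 594 CPM of Cd74 against 255 to 258 in the other 3 samples and 144 CPM of H2-Ab1 against 41.7 to 48.2. KO spleen replicate 3 had 68.0 CPM of H2-DMa against 54.0 to 55.3, 439.7 CPM of summed macrophage and monocyte markers against 148 to 190.5, and 2.64 CPM of stromal markers against 2.04 to 2.10, a difference of a few reads. WT spleen replicate 2 had 65.9 CPM of H2-DMa against 63.2 to 63.7, a small step in a tight group. WT spleen replicate 4 had 5.11 CPM of CD8 T cell markers against 2.56 to 2.88. The 3 WT mLN samples were too few for this check.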

How the results depend on the processing

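Over all genes, the number called changed with the method. Between genotypes in spleen, where 185 genes were called, DESeq2 gave 799, no filter on low counts 1422, all 15 samples in 1 fit 85, the replicate block 17, the fit without the macrophage-rich libraries 33, that without the libraries rich in red cell reads 119, and each sample left out 12 to 324. In mLN, where 92 were called, the same settings gave 561, 913, 500, 1 with the replicate block, and 4 without the libraries rich in red cell reads, and 4 to 117 with each sample left out. Between organs in WT (2980) the fit without the libraries rich in red cell reads gave 1472 and leaving out each sample 1816 to 2780, and in KO (3602) the latter gave 2631 to 3669. For the interaction (0), DESeq2 gave 2, no filter 112, the replicate block 3 and each sample left out 0. Of the 7 members, between genotypes in spleen (0) DESeq2 called 3 and no filter 4, and in mLN (0) no filter called 3. Between organs in WT (4), all 15 samples in 1 fit and the fit without the macrophage-rich libraries called 2, and each sample left out 2 to 4. In KO (0) no filter called 3 and leaving out each sample 0 to 1, and for the interaction (0) no filter called 2. Between genotypes the number is shared in the labels only, and whether the KO organs are paired is not known. Outside the WT organ pairs the block called 0 members. With each sample left out, members called between genotypes stayed at 0 in both organs, and for the interaction at 0.

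Some members that were not called turned direction, and the cause was not tested. Between organs in WT, Cd74 was at 0.23 with the replicate block and 0.44 without the libraries rich in red cell reads, where H2-DMb1 was at 0.42, and leaving out each sample gave −0.29 to 0.27 for Cd74 and −1.39 to 0.17 for H2-DMb1. Between organs in KO, Cd74 was at 0.13 without the macrophage-rich libraries, and leaving out each sample gave −0.49 to 0.13 for Cd74, −0.18 to 0.88 for H2-Aa, −0.41 to 0.61 for H2-Ab1, −0.019 to 0.95 for H2-Eb1, −0.51 to 0.50 for H2-DMb1 and −0.37 to 0.45 for Ciita. Between genotypes in mLN it gave −0.26 to 0.98 for H2-Aa, −0.29 to 0.97 for H2-Ab1 and −0.35 to 0.79 for H2-Eb1. For the interaction, the terms of H2-Aa, H2-Ab1 and Cd74 were 0.17, 0.26 and 0.44 without the macrophage-rich libraries and that of H2-DMb1 −0.21 without the libraries rich in red cell reads, and leaving out each sample gave −0.46 to 0.21 for Cd74 and −0.19 to 1.60 for H2-DMb1. Between genotypes in spleen all 7 kept their direction under all 17 alternatives. Without the 2 samples farthest from the median, the r of Cd74 turned to 0.085 with CD8 T cells and −0.17 with dendritic cells in spleen, and to −0.086 with T cells, −0.17 with macrophages and 0.17 with red cells in mLN, and no relation passed under any setting. Group mean levels moved by less than 1 SD under TMM scaling. Low counts limit H2-DMb1 and Ciita most, and H2-DMb1 left the fits that asked for 10 counts in every sample, except those of the spleen and of the KO organs.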
